A study of Mus musculus with 13 samples.

Results

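UDP-glucuronosyltransferases (UGTs) were followed in the liver of mice with an obstructed bile duct. The 10 genes described were chosen by symbol: Ugt1a1, Ugt1a6a and Ugt1a9 of the UGT1A group, and Ugt2a3, Ugt2b1, Ugt2b5, Ugt2b34, Ugt2b35, Ugt2b36 and Ugt2b38 of the UGT2 group. They are 10 of the 23725 genes with a row in each of the larger deposited count tables (23079 in the table of miR-Ctrl BDL and no BDL), and all 10 had enough counts to be tested in each comparison.

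RNA sequencing was performed on whole livers of 13 male C57 mice of 3 months of age, wild type for Gnmt. No bile duct ligation (no BDL) was done in 5 mice, which the labels call non treated, and whether they had sham surgery was not stated. Bile duct ligation (BDL), a surgical closure of the common bile duct that causes cholestasis and fibrosis, was done in the other 8. Of these, 4 received a control oligonucleotide (miR-Ctrl BDL) and 4 received anti-miR-873-5p (anti-miR-873-5p BDL), a hairpin inhibitor of microRNA miR-873-5p, each as 60 µg per mouse by intravenous injection at days 3 and 5 after surgery, and livers were taken at day 7. No group received an oligonucleotide without BDL, so the mice with miR-Ctrl BDL differed from those with no BDL by both surgery and oligonucleotide. P-values measure the spread between these mice only.

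UGTs are membrane enzymes of the endoplasmic reticulum that transfer glucuronic acid from UDP-glucuronic acid to small lipophilic molecules, which makes them water soluble and ready for export into bile or urine. The hepatocyte is their main site in the liver. UGT1A enzymes are encoded by alternative first exons spliced to a common set of downstream exons, so each has its own promoter and substrate binding part but the same cofactor binding part. UGT1A1 is the enzyme that conjugates bilirubin, UGT1A6 acts on small planar phenols and UGT1A9 on bulkier phenols, while UGT2B enzymes are separate genes in a tandem cluster that act on steroid hormones, bile acids, fatty acids and drugs.

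In the mouse genome (build mm10, RefSeq annotation of GRCm38.p6) the UGT1A members lay on the plus strand of chromosome 1, at chr1:88211959-88220002 for Ugt1a1, chr1:88134809-88220002 for Ugt1a6a and chr1:88070779-88220002 for Ugt1a9, all with the same end. The UGT2 members lay on chromosome 5, with Ugt2b34 at chr5:86889770-86906937, Ugt2b1 at chr5:86916639-86926503, Ugt2b35 at chr5:87000860-87013274, Ugt2b36 at chr5:87065927-87092555, Ugt2b5 at chr5:87124946-87140340, Ugt2a3 at chr5:87324972-87337195 and Ugt2b38 at chr5:87409939-87424203. Coding sequences of Ugt2b5 and Ugt2b38 were 97% identical with an identical run of 443 bases, and Ugt2b5 shared 88.6% with Ugt2b36, 87.8% with Ugt2b35, 74.4% with Ugt2b1 and 72.7% with Ugt2b34. Reads were 50 nucleotides long, and 41.7% of the 50-base windows of Ugt2b5 and 37.4% of those of Ugt2b38 occurred in another gene, against 0.0% for Ugt2b1, 0.3% for Ugt2b35 and Ugt2b36, and 1.4% for Ugt2b34. For the UGT1A members, with their common exons, the figure was 58.2% for Ugt1a1, 52.1% for Ugt1a6a and 62.0% for Ugt1a9. Values of Ugt2b5, Ugt2b38 and the UGT1A members are therefore uncertain in how reads were split between genes that share sequence or exons.

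The genes closest to Ugt2b5 in coding sequence were also closest to it just upstream of the transcription start. The 30 bases from 34 to 5 before the start of Ugt2b5 (chr5:87140345-87140374, minus strand) are shown, from RefSeq promoters of GRCm38.p6, with the closest ungapped 30-base match in the 250 bases upstream of 5 other genes of the cluster; Ugt2b37, a further UGT2B gene, is included because its counts moved with those of Ugt2b5. Capitals mark bases equal to Ugt2b5.
Ugt2b5: TTCTTGGATAAAAGGTCAAGCAGTGACAGA
Ugt2b37: TTCTTGGATAAAAGGTCAAGCAGTGACAGA
Ugt2b38: TTCTTGGATAAAAGGTCAAGCAGTGACAaA
Ugt2b36: TTCTTaGATAAAAGGTCAAGCAGTGACAGA
Ugt2b35: TTCTTaGATAAgAGGaCAgGCAGTaAagcA
Ugt2b1: TTgaaaaAgAAAAGaaaAAGaAGTGAatcA
Ugt2b37 (chr5:87254810-87254839, minus strand) had 0 differences, and Ugt2b38 (chr5:87424211-87424240, minus strand) and Ugt2b36 (chr5:87092563-87092592, minus strand) had 1 each. Ugt2b35 (chr5:87000823-87000852, plus strand) had 8 differences, and the best match of Ugt2b1 (chr5:86926718-86926747, minus strand) had 13. Of 32851 annotated start sites, 0.0122% held a match with at most 1 difference and 0.0183% one with at most 8. The former are the 4 sites of Ugt2b5, Ugt2b36, Ugt2b37 and Ugt2b38 themselves, and the latter add those of Ugt2b35 and Gm5751. A match with at most 13 differences was present at 6.34% of start sites, so that of Ugt2b1 was unremarkable, as were those of Ugt2a3 with 14 and Ugt2b34 with 16.

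Values in the tables are reads counted per gene, with totals of 13483226 to 15163990 per mouse in the table of both BDL groups, 12185333 to 19689037 where miR-Ctrl BDL was tabled with no BDL, and 12857186 to 19385430 where anti-miR-873-5p BDL was. Levels are given as CPM, counts per 1000000 counts of the mouse, scaled by the trimmed mean of M values (TMM), a scaling that sets the bulk of genes equal between mice, over all 13 mice. The scaling changed the values. The 20 genes with the most counts took 34.6% to 50.2% of all counts in mice with no BDL, and 24.8% to 30.2% in mice with BDL. TMM factors were 0.625 to 0.866 with no BDL and 1.08 to 1.45 with BDL. Scaling by total counts alone raised the median of all genes by 0.79 (log2) in miR-Ctrl BDL and by 0.82 with anti-miR-873-5p BDL over no BDL, and by 0.41 and 0.38 with those 20 genes left out of the totals, so a member's direction was read against the median of all genes, and where the sign of its change turned with the scaling this is stated.

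The table that compares both BDL groups lacked anti-miR-873-5p mouse 2 and miR-Ctrl mouse 3, which were present in the tables against no BDL. The counts of that comparison are labelled as without outliers, and the study's methods mention removal of outliers without naming mice. Mouse 3 of miR-Ctrl BDL had the lowest level of its group for 9 of the 10 members and the highest for Ugt1a1, while mouse 2 of anti-miR-873-5p BDL had the lowest for 5, the highest for Ugt1a1 and a level between the others for 4. Mouse 1 of anti-miR-873-5p BDL, which was in both tables, had the highest level of its group for 9 members.

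The identity of the tissue was checked with hepatocyte markers. Alb, which encodes albumin, was the most abundant of them, and the summed level of the 5 marker genes with the same counts in each table ranged from 114252 to 129323 CPM with no BDL. It was 67549, 48695, 49660 and 80051 in the 4 mice with miR-Ctrl BDL and 64874, 90330, 57449 and 42044 in the 4 with anti-miR-873-5p BDL, so both BDL groups lay below all mice with no BDL under TMM. Scaled by total counts the groups overlapped, at 74513 to 107905 CPM with no BDL, 53570 to 95006 with miR-Ctrl BDL and 61056 to 101720 with anti-miR-873-5p BDL. Over the same mice the summed cholangiocyte markers, led by Sox9, were at 10.8 to 14.9 CPM with no BDL, at 51.7, 67.9, 80.8 and 43.7 with miR-Ctrl BDL, and at 42.4, 38.2, 95.5 and 69.9 with anti-miR-873-5p BDL. Where a level is lower in whole liver, fewer hepatocytes and less RNA per hepatocyte cannot be told apart.

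With no BDL, Ugt2b5 was the most abundant of the 10 genes. Per kilobase of exon not shared by genome position with another gene, its level was 432 ± 67.4 CPM (mean ± SD, n = 5). It was followed by Ugt2b36 with 268 ± 39.1, Ugt2b1 with 226 ± 59.2, Ugt1a1 with 182 ± 55.4 and Ugt2b38 with 144 ± 31.8. Ugt2b34 was at 101 ± 8.38, Ugt2a3 at 83.4 ± 42.1, Ugt2b35 at 57.7 ± 10.5, Ugt1a6a at 48.7 ± 9.14 and Ugt1a9 at 18.8 ± 9.94. The SD ranges of neighbours overlapped from Ugt2b36 down to Ugt2b38 and from Ugt2b34 down to Ugt1a6a. Those of Ugt2b36 and Ugt2b38 did not overlap, nor did that of Ugt2b34 with those of Ugt2b35 and Ugt1a6a. All genes were measured in the same mice, which these ranges leave out of account, and the order of neighbours was not tested. The place of Ugt1a1 rested on the assumption that reads from the common exons were not counted for it: over all of its exon bases its level per kilobase was 74.6 ± 22.7, the seventh of 10. Ugt1a10 and Ugt1a7c, which contain the same common exons, had 1 to 45 and 1 to 35 reads per mouse. Ugt2b5 and Ugt2b38 were divided by their whole exon length, though 41.7% and 37.4% of their 50-base windows occurred in another gene. Their levels per kilobase are uncertain for that reason.

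**Figure D1:**
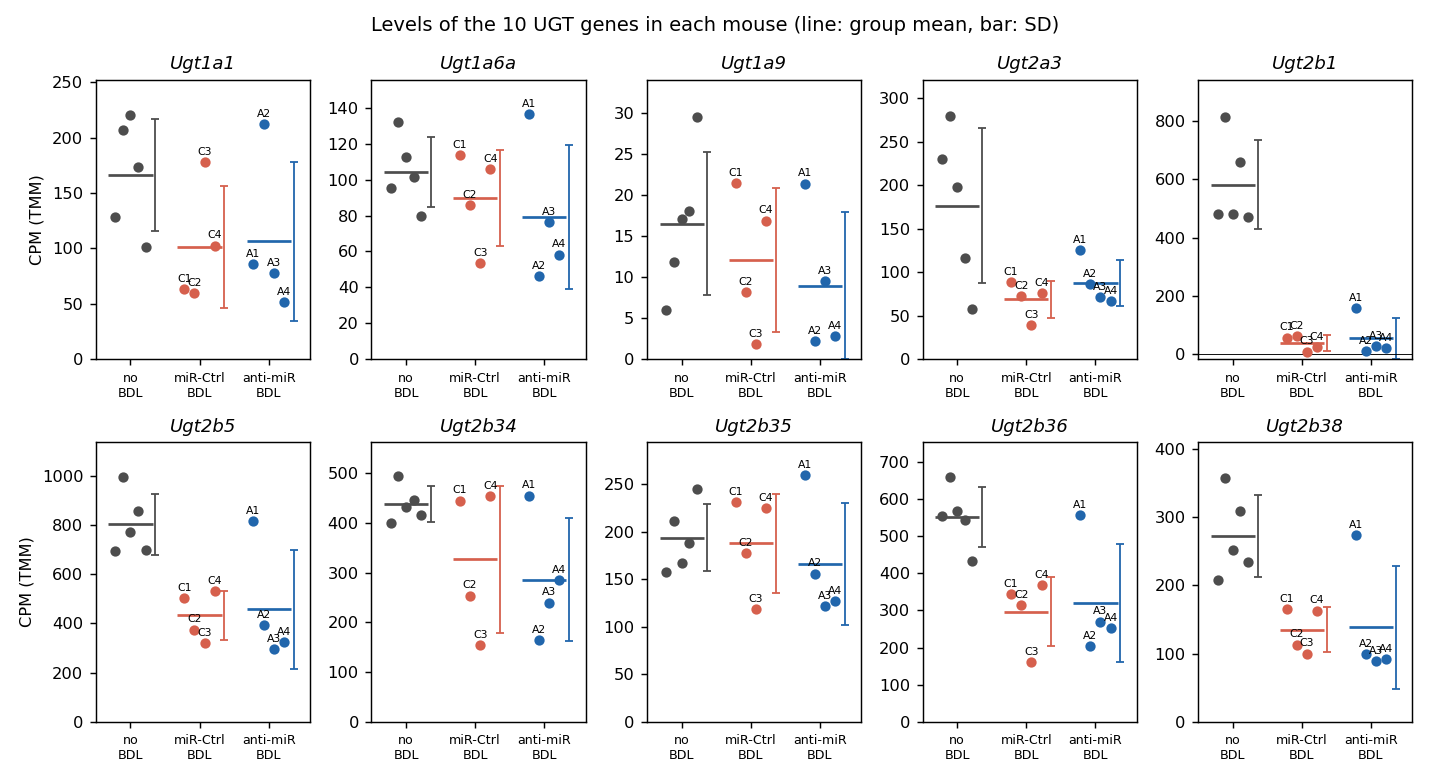
Level of each of the 10 UGT genes (CPM, TMM scaling, y axis) in mice with no BDL (n = 5), miR-Ctrl BDL (n = 4) and anti-miR-873-5p BDL (n = 4). Points are mice (C and A with the mouse number for miR-Ctrl and anti-miR-873-5p), the line is the mean and the bar the SD. Ugt2b1 is below all mice with no BDL in the 8 mice with BDL, whereas the groups overlap for Ugt2b35.

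The first comparison asked how the UGT genes differed between cholestatic liver and liver with no BDL. In miR-Ctrl BDL, 5 of the 10 genes fell (Ugt2b1, Ugt2a3, Ugt2b38, Ugt2b5 and Ugt2b36), none rose and 5 did not pass the threshold of an adjusted p of 0.05 in edgeR's quasi-likelihood test; of all 13072 genes tested, 35.7% passed, 16.6% as lower and 19.1% as higher. In anti-miR-873-5p BDL only Ugt2b1 passed, as lower, where 8.44% of 13130 genes were lower and 21.5% changed in either direction. The median log2 fold change of the 10 genes was -0.80 in miR-Ctrl BDL and -0.78 in anti-miR-873-5p BDL, against -0.01 for all genes in both. These comparisons share their 5 mice with no BDL.

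Ugt2b1 had the largest fall of the 10 under TMM and under total counts alone. Its level was 480, 815, 481, 659 and 472 CPM in the mice with no BDL, 56.8, 62.8, 8.56 and 24.2 in those with miR-Ctrl BDL, and 159, 9.50, 28.7 and 21.7 in those with anti-miR-873-5p BDL. Each mouse with BDL was below each mouse with no BDL, and mouse 1 of anti-miR-873-5p BDL was the highest of the 8. The group means were 581 ± 152, 38.1 ± 26.0 and 54.8 ± 70.0 (SD). The log2 fold change was -3.91 (SE 0.56, adjusted p = 0.000824, edgeR) in miR-Ctrl BDL and -3.39 (SE 0.76, adjusted p = 0.0141) with anti-miR-873-5p BDL. It was still -3.02 (adjusted p = 0.000671) and -2.58 (adjusted p = 0.00558) when scaled by total counts alone. Read counts behind these levels were 5569 to 8571 with no BDL, and as low as 103 in miR-Ctrl mouse 3 and 126 in anti-miR-873-5p mouse 2. Per kilobase of unshared exon Ugt2b1 was the third of the 10 genes with no BDL and the ninth in both BDL groups (the eighth over all exon bases in anti-miR-873-5p BDL), at 14.8 ± 10.1 and 21.3 ± 27.2 CPM.

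Ugt2b5, Ugt2b38 and Ugt2b36, close relatives in coding and upstream sequence, had smaller changes than Ugt2b1. Ugt2b5 was at 693, 993, 771, 855 and 700 CPM with no BDL, at 502, 374, 320 and 532 with miR-Ctrl BDL, and at 815, 392, 296 and 323 with anti-miR-873-5p BDL. The miR-Ctrl group was wholly below the mice with no BDL, whereas in the anti-miR-873-5p group mouse 1 lay among them. Its log2 fold change was -0.88 (SE 0.19, adjusted p = 0.00664) in miR-Ctrl BDL and -0.80 (SE 0.30, adjusted p = 0.0878) with anti-miR-873-5p BDL. Scaled by total counts alone these were -0.06 (adjusted p = 0.812) and 0.01, so the call in miR-Ctrl BDL was lost and the sign turned in the other.

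Ugt2b38 was at 209, 357, 252, 309 and 235 CPM with no BDL, at 165, 113, 99.9 and 163 with miR-Ctrl BDL, and at 274, 98.9, 89.3 and 92.0 with anti-miR-873-5p BDL. Mouse 1 was again the only one of the anti-miR-873-5p group within the range of mice with no BDL. For Ugt2b38 the log2 fold change was -1.0 (SE 0.21, adjusted p = 0.00590) and -0.96 (SE 0.36, adjusted p = 0.0818), or -0.18 (adjusted p = 0.505) and -0.15 (adjusted p = 0.677) with total counts alone. Ugt2b36 was at 554, 659, 568, 544 and 433 CPM with no BDL, at 343, 314, 161 and 369 with miR-Ctrl BDL and at 557, 205, 270 and 252 with anti-miR-873-5p BDL, with the same arrangement of mice. Its log2 fold change was -0.88 (SE 0.24, adjusted p = 0.0173) and -0.76 (SE 0.29, adjusted p = 0.0857), or -0.05 (adjusted p = 0.875) and 0.05 with total counts alone.

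With anti-miR-873-5p mouse 1 left out, 6 of the 10 genes passed as lower than no BDL in place of 1: Ugt2b1 with a log2 fold change of -4.84, Ugt2b38 with -1.53, Ugt2b5 with -1.24, Ugt2b36 with -1.17, Ugt2b34 with -0.91 and Ugt1a6a with -0.77. In that fit 24.1% of all genes passed, 10.3% as lower, against 21.5% and 8.44% with the mouse kept. DESeq2 called 4 members with all mice kept (Ugt2b1, Ugt2b5, Ugt2b36 and Ugt2b38), where it called 21.4% of genes and 8.32% as lower; in miR-Ctrl BDL it called the same 5 as edgeR, where it called 30% and 12.9% as lower. In 1 edgeR fit of all 13 mice, 5 members were lower in miR-Ctrl BDL and Ugt2b1 and Ugt2b38 in anti-miR-873-5p BDL, where 15.9% and 10.1% of genes were. At an adjusted p of 0.1, the 4 members called by DESeq2 were also lower in edgeR's fit of anti-miR-873-5p BDL, where 31.1% of genes passed and 13.5% were lower.

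Groups did not overlap for 4 members in miR-Ctrl BDL (Ugt2b1, Ugt2b5, Ugt2b36 and Ugt2b38), each lower, where 15.4% of 12102 genes with a mean of at least 1 CPM were wholly lower. In anti-miR-873-5p BDL this held for Ugt2b1 alone, where 8.97% of genes were wholly lower. With levels scaled by total counts alone, it held for 1 member in either comparison, where 1.48% and 0.57% of genes were wholly lower.

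Ugt2a3 also fell in miR-Ctrl BDL, with a wide spread among mice with no BDL (177 ± 89.1 CPM, SD). Its level was 230, 280, 198, 116 and 58.1 CPM with no BDL, 88.6, 72.2, 38.6 and 75.9 with miR-Ctrl BDL, and 125, 86.3, 71.5 and 66.6 with anti-miR-873-5p BDL. Mouse 5 with no BDL was below 3 of the 4 mice with miR-Ctrl BDL. Ugt2a3 had a log2 fold change of -1.34 (SE 0.43, adjusted p = 0.0334) in miR-Ctrl BDL and -1.0 (SE 0.41, adjusted p = 0.107) with anti-miR-873-5p BDL. Its call in miR-Ctrl BDL was lost in 6 of the 9 fits that left out 1 mouse, with adjusted p from 0.00481 to 0.0753. The call was also lost with total counts alone (-0.50, adjusted p = 0.296). With anti-miR-873-5p BDL, Ugt2a3 passed in 1 of the 9 fits that left out 1 mouse, with adjusted p from 0.0179 to 0.235.

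Ugt1a1, the bilirubin conjugating enzyme, did not pass in any comparison with all mice kept. It was at 129, 207, 220, 173 and 101 CPM with no BDL, at 63.3, 59.4, 178 and 102 with miR-Ctrl BDL and at 85.4, 212, 77.6 and 51.2 with anti-miR-873-5p BDL. Mouse 3 of miR-Ctrl BDL and mouse 2 of anti-miR-873-5p BDL were within the range of the mice with no BDL, and the other 6 mice with BDL were near or below its lower end. The log2 fold change was -0.71 (SE 0.35, adjusted p = 0.139) and -0.63 (SE 0.39, adjusted p = 0.281). Without miR-Ctrl mouse 3 it was -1.14 (adjusted p = 0.0112), and the members past the threshold were then Ugt1a1, Ugt2b1, Ugt2b5, Ugt2b36 and Ugt2b38, where 42.3% of all genes passed and 20.1% were lower. Without anti-miR-873-5p mouse 2 it was -1.20 (adjusted p = 0.0137), and Ugt1a1 and Ugt2b1 passed, where 31.7% of all genes did and 13.4% were lower. With total counts alone and all mice kept, its log2 fold change turned to 0.02 and 0.11, below the median of all genes.

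In those mice markers of other cell types also differed from the rest. The summed endothelial markers, led by Clec4g, were at 15.3 CPM in miR-Ctrl mouse 3 and 22.7 in anti-miR-873-5p mouse 2, against 55.3 to 114 in the other 11 mice, and the summed erythroid markers, led by Hbb-bs, were at 37.6 and 32.0, against 108 to 1048 in the others. Both mice also had the lowest sum of their group for stellate cell and fibroblast markers, 187 and 115 CPM. They differed in neutrophil markers, at 205 CPM in miR-Ctrl mouse 3, against 8.22 to 52.7 in the other mice with BDL, and 8.22 in anti-miR-873-5p mouse 2. Their part in the Ugt1a1 values was not tested.

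Ugt1a6a was at 95.7, 132, 113, 102 and 79.9 CPM with no BDL, 114, 85.8, 53.7 and 106 with miR-Ctrl BDL, and 137, 46.4, 76.2 and 58.2 with anti-miR-873-5p BDL. The groups overlapped, with a log2 fold change of -0.20 (SE 0.22, adjusted p = 0.516) and -0.37 (SE 0.29, adjusted p = 0.396), which turned to 0.62 and 0.44 with total counts alone. Ugt1a9, the least abundant member, ranged from 5.94 to 29.5 CPM with no BDL, from 1.83 to 21.5 with miR-Ctrl BDL and from 2.19 to 21.4 with anti-miR-873-5p BDL, and did not pass (log2 fold change -0.43 with SE 0.60, and -0.86 with SE 0.66, the former turning to 0.39 with total counts alone). Leaving out 1 mouse gave values from -0.86 to -0.09 in miR-Ctrl BDL, and from -1.75 (without mouse 1 of the anti-miR-873-5p group, adjusted p = 0.0644) to -0.54 in the other comparison. The error of Ugt1a9 was too large to show a change of the size seen for Ugt2b5.

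Ugt2b34 was at 399, 494, 432, 447 and 416 CPM with no BDL, 445, 254, 154 and 454 with miR-Ctrl BDL and 455, 164, 240 and 285 with anti-miR-873-5p BDL. The 5 mice with no BDL lay close together (438 ± 36.1, SD), mice 1 and 4 with miR-Ctrl BDL and mouse 1 with anti-miR-873-5p BDL were at their level, and the other 5 mice with BDL were below all of them. Its log2 fold change was -0.41 (SE 0.29, adjusted p = 0.297) and -0.59 (SE 0.26, adjusted p = 0.131), which turned to 0.42 and 0.24 with total counts alone.

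Ugt2b35, between Ugt2b1 and Ugt2b36 in the cluster, differed least under TMM. Its level was 158, 211, 167, 189 and 245 CPM with no BDL, 231, 178, 118 and 225 with miR-Ctrl BDL and 260, 156, 122 and 127 with anti-miR-873-5p BDL. All 3 groups overlapped, and the means were 194 ± 35.1, 188 ± 52.2 and 166 ± 64.0 (SD). The log2 fold change was -0.03 (SE 0.21, adjusted p = 0.930) and -0.20 (SE 0.24, adjusted p = 0.578). With total counts alone Ugt2b35 was higher, by 0.80 (SE 0.24, adjusted p = 0.0123) in miR-Ctrl BDL and 0.61 (SE 0.23, adjusted p = 0.0297) with anti-miR-873-5p BDL, where the median of all genes was higher by 0.79 and 0.82. Of the 10 members, Ugt2b35 was thus the one closest to the bulk of genes in miR-Ctrl BDL under both scalings.

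**Figure D2:**
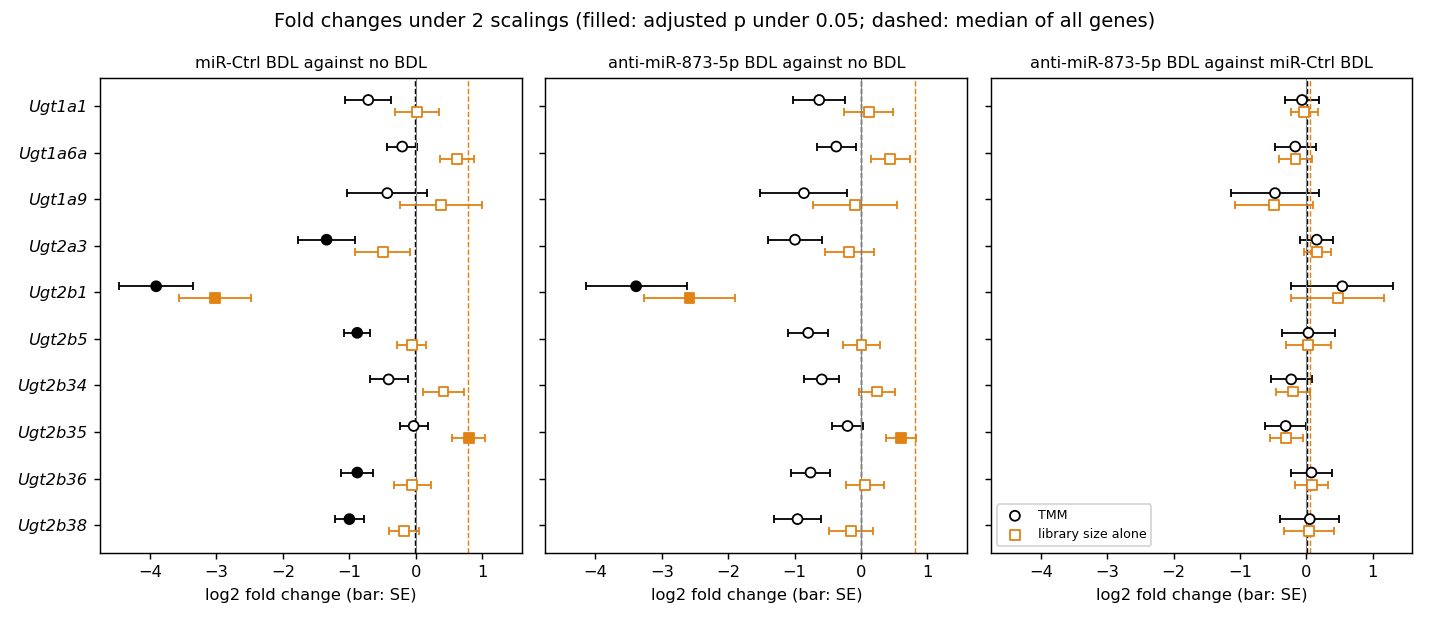
Log2 fold change with its SE (x axis) of each UGT gene (y axis) in the 3 comparisons, under TMM (circles) and total counts alone (squares); filled symbols have an adjusted p under 0.05 and dashed lines are the median of all genes. In both comparisons with no BDL, the total-count values are moved to the right together with the median of all genes. There Ugt2b1 is far to the left of that median under either scaling. Between the BDL groups Ugt2b1 is to the right of it, by a log2 difference of 0.53 under TMM and 0.42 with total counts alone.

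A change of scaling moves all genes by nearly the same amount, so the distance of the members from the median of all genes is nearly fixed and is given as a description. In miR-Ctrl BDL the median of the 10 was below the median of all genes by a log2 difference of -0.79 under TMM, -0.81 with total counts alone and -0.80 with the 20 most counted genes left out of the totals, with 10, 9 and 9 members under it. In anti-miR-873-5p BDL the differences were -0.77, -0.79 and -0.78, with 10 members under it each time. The number past the threshold did depend on the scaling: with total counts alone, Ugt2b1 was lower and Ugt2b35 higher in both comparisons and the other 8 did not pass, where 73.7% and 77.6% of all genes passed, 2.1% and 0.998% as lower and 71.6% and 76.6% as higher. Leaving the 20 most counted genes out of the totals left Ugt2b1 as the single member called in either comparison, where 4.74% and 2.31% of genes were lower.

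**Figure D3:**
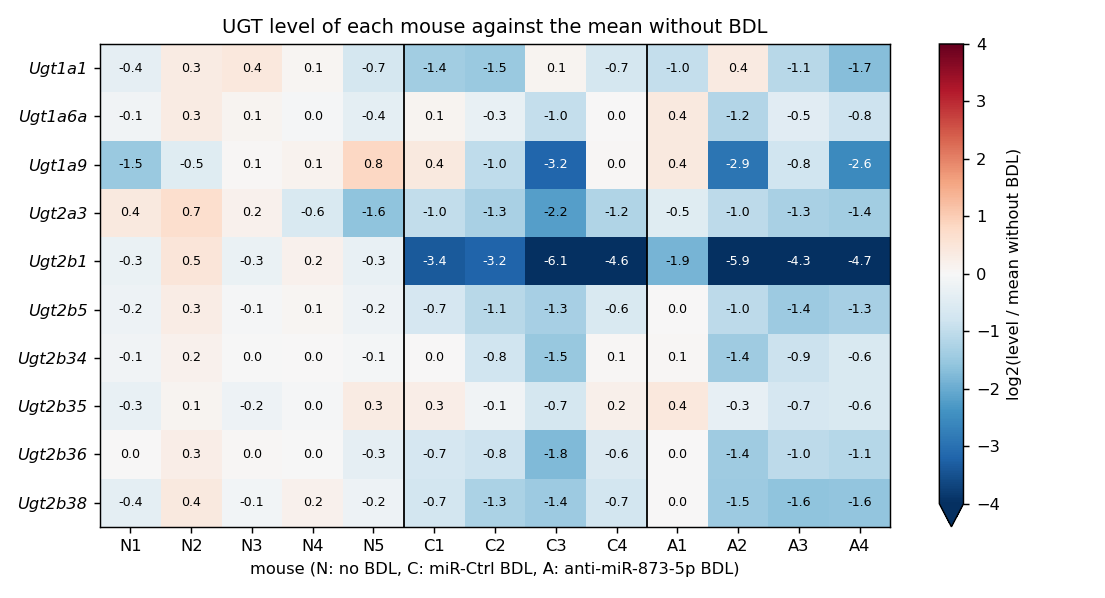
Log2 ratio of each UGT gene's level in each of the 13 mice (columns, by group) to its mean level with no BDL (rows are genes; colour is the log2 ratio, TMM scaling). The row of Ugt2b1 is the lowest in all 8 mice with BDL, and the column of miR-Ctrl mouse 3 is low except for Ugt1a1.

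A quantity that needs no scaling is the share of each gene in the reads counted for all 10. Ugt2b1 held 17.4% ± 2.00 (SD, n = 5) of these reads with no BDL, with a range of 14.9% to 19.6%, but 2.21% ± 1.55 with miR-Ctrl BDL (n = 4, 0.755% to 4.13%) and 2.54% ± 2.08 with anti-miR-873-5p BDL (n = 4, 0.693% to 5.51%). Ugt2b35 went the other way, from 5.99% ± 1.60 (5.07% to 8.84%) to 11.1% ± 0.555 (10.4% to 11.7%) and 9.96% ± 1.02 (8.99% to 11.4%), without overlap. The share of Ugt2b5 was close in the 3 groups, at 24.3%, 25.8% and 26.3%, and so was that of Ugt2b36, at 16.8%, 17.4% and 18.7%. Ugt1a6a held 3.16% ± 0.240 with no BDL, 5.27% ± 0.428 with miR-Ctrl BDL and 4.65% ± 1.05 with anti-miR-873-5p BDL. Ugt1a1 held 15.7% in miR-Ctrl mouse 3 and 15.4% in anti-miR-873-5p mouse 2, against group means of 4.98%, 6.92% and 7.12%. No test was run on the shares, which sum to the whole and so are not independent of each other.

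**Figure D4:**
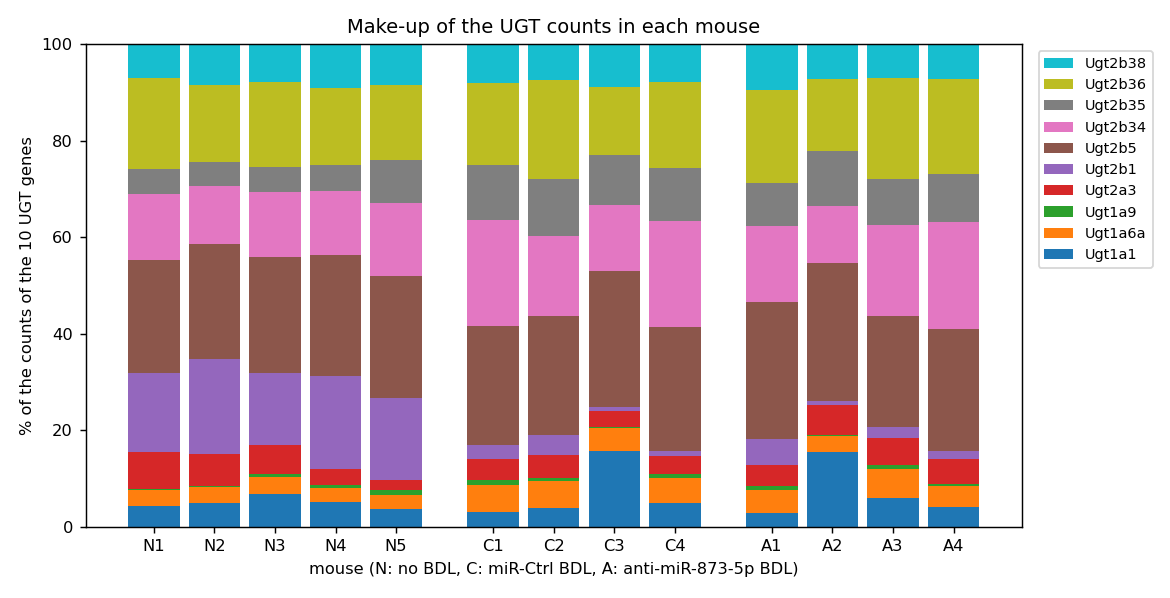
Share of each UGT gene in the reads counted for the 10 genes (y axis, percent, stacked to the whole) in each of the 13 mice (x axis, by group). The Ugt2b1 band is 14.9% to 19.6% of the reads with no BDL and at most 5.51% in any mouse with BDL.

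The summed level of the 10 genes was 3303 ± 539 CPM with no BDL (SD, range 2769 to 4161), 1688 ± 446 with miR-Ctrl BDL (1134 to 2068) and 1705 ± 790 with anti-miR-873-5p BDL (1280 to 2888). All 4 mice with miR-Ctrl BDL and 3 of the 4 with anti-miR-873-5p BDL were below the lowest mouse with no BDL. As a part of all counted reads, however, the 10 genes took 0.233%, 0.209% and 0.213%, so this difference too was relative to the bulk of genes. Without Ugt2b1 the other members took 0.192%, 0.204% and 0.207%, which is not lower with BDL.

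Ratios between members showed which moved together. The count ratio of Ugt2b38 to Ugt2b5 was 0.337 ± 0.0251 with no BDL, 0.312 ± 0.0113 with miR-Ctrl BDL and 0.294 ± 0.0350 with anti-miR-873-5p BDL (SD), and over the 13 mice the log2 levels of this pair had a Pearson r of 0.99, the highest of any pair of members. Part of the sequence of the pair is identical, and how far reads of one were counted for the other was not tested. The ratio of Ugt2b1 to Ugt2b5 was not steady, at 0.716 ± 0.0785, 0.0883 ± 0.0646 and 0.0959 ± 0.0726, and that of Ugt2b35 to Ugt2b5 was 0.245 (0.213 to 0.350), 0.432 (0.370 to 0.475) and 0.381 (0.318 to 0.411). Ugt1a1 had an r between -0.12 (Ugt1a9) and 0.44 (Ugt2b5) to the other members, with the 4 values below 0 for Ugt1a9, Ugt2b35, Ugt2b34 and Ugt1a6a. These correlations are across mice of all 3 groups that share scaling factors, and are given as a description.

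Outside the UGT genes, the 5 of 12655 genes whose log2 levels were most like those of Ugt2b5 over the 13 mice were Larp1b (r = 0.957), Akr1c13 (0.956), Rab5b (0.955), Mid1ip1 (0.950) and Echdc1 (0.949).

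The second comparison asked whether inhibition of miR-873-5p altered the UGT genes in BDL, with 3 mice in each group. None of the 10 passed between the BDL groups, with adjusted p from 0.870 to 0.993, where 0% of 13746 genes passed, 863 had an unadjusted p under 0.05 and DESeq2 called 31, or 0.17% of those it tested. The median log2 fold change of the members was -0.02, against 0.01 for all genes. It was 0.54 (SE 0.77, adjusted p = 0.920) for Ugt2b1, -0.31 (SE 0.31, adjusted p = 0.870) for Ugt2b35, 0.03 (SE 0.40) for Ugt2b5 and -0.07 (SE 0.26) for Ugt1a1. The groups of 4 mice overlapped for all 10 members, where 1.4% of genes were wholly lower and 1.62% wholly higher. Left without anti-miR-873-5p mouse 1, all 10 members had a log2 fold change below 0 with a median of -0.60, where the median of all 13948 genes was -0.000163, and none passed. The SE of the members was 0.25 to 0.77, so the fits do not show that the groups were alike.

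The members were searched for the target of the inhibited microRNA, whose sequence is shown because its seed (capitals, bases 2 to 8) sets what a match is. RefSeq places it at chr4:36668556-36668576 on the minus strand.
mmu-miR-873a-5p: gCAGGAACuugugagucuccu
A match to the seed is GTTCCTG in the 3′ untranslated region (UTR), and 3131 of 21028 protein-coding genes (14.9%) had one in the GENCODE transcripts of GRCm38. Of the 10 members, Ugt2b34 had one, 1432 bases after the stop codon in a 3′ UTR of 2972 bases (chr5:86891290-86891319, minus strand, match in capitals).
Ugt2b34: ggatgtgcttggGTTCCTGctggcctgtgt
That UTR belongs to 1 annotated transcript, and another transcript of the gene has a different stop codon. Between the BDL groups Ugt2b34 had a log2 fold change of -0.23 (SE 0.31, adjusted p = 0.912). A match to the letters is not evidence of a site in use.

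Other UGT genes gave a mixed picture. Of 12 looked for, 10 had a row and 7 were tested. In miR-Ctrl BDL 1 rose and 3 fell, where 19.1% of all genes rose and 16.6% fell. In anti-miR-873-5p BDL 1 rose and 2 fell, where 13.1% of all genes rose and 8.44% fell. Ugt1a7c rose by a log2 fold change of 2.95 (SE 0.42, adjusted p = 0.000814) and 2.65 (adjusted p = 0.00427), but on 1 to 4 reads per mouse with no BDL, 20 to 35 with miR-Ctrl BDL and 15 to 33 with anti-miR-873-5p BDL. Ugt3a1 fell, at -2.0 (adjusted p = 0.000365) and -1.63 (adjusted p = 0.00445), as did Ugt3a2, at -1.26 (adjusted p = 0.00126) and -1.09 (adjusted p = 0.00658), and both belong to the UGT3 family, which uses other UDP sugars. Scaled by total counts, 2 of the 7 rose and 2 fell in miR-Ctrl BDL and 1 rose and 1 fell in anti-miR-873-5p BDL. Beside these, 71.6% and 76.6% of all genes were higher and 2.1% and 0.998% lower. Ugt3a1 was then at -1.19 and -0.79 and still passed, and Ugt3a2 was at -0.47 (adjusted p = 0.0282) and -0.25 (adjusted p = 0.279). Ugt2b37, with the promoter stretch equal to that of Ugt2b5, was at -0.92 (adjusted p = 0.00464) and -0.83 (adjusted p = 0.0766), or at -0.10 (adjusted p = 0.684) and -0.02 (adjusted p = 0.946) with total counts, and its count ratio to Ugt2b5 was 0.179, 0.173 and 0.173 in the 3 groups. Ugt2a1 and Ugt2a2 had 0 reads in every mouse.

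None of Ugp2, Ugdh, Slc35d1 and Entpd5, which supply the cofactor, passed in either comparison with no BDL, where 35.7% and 21.5% of all genes did. Their median was 0.35 (log2) in miR-Ctrl BDL and 0.08 in anti-miR-873-5p BDL. Ugdh, which oxidises UDP-glucose to UDP-glucuronic acid, was at 1.13 (adjusted p = 0.0636) in miR-Ctrl BDL. Scaled by total counts, 3 of the 4 were higher in both comparisons, beside 71.6% and 76.6% of all genes, among them Ugdh at 1.98 (adjusted p = 0.00258) and 1.32 (adjusted p = 0.00746).

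Of 9 genes for bilirubin and the handling of conjugates, 2 rose and 2 fell in both comparisons. Among all genes 19.1% rose and 16.6% fell in miR-Ctrl BDL, and 13.1% and 8.44% in anti-miR-873-5p BDL. Hmox1, which begins the breakdown of heme to bilirubin, had a log2 fold change of 2.46 (adjusted p = 0.00192) and 1.95 (adjusted p = 0.0107), and Gusb, the lysosomal enzyme that cleaves glucuronides, one of 0.82 (adjusted p = 0.00311) and 0.60 (adjusted p = 0.0283). Slco1a1 and Slco1b2, uptake carriers of the hepatocyte for organic anions, fell in both. The log2 fold change of Slco1a1 was -6.57 (adjusted p = 0.000121) and -4.74 (adjusted p = 0.00114), and that of Slco1b2 was -1.80 (adjusted p = 0.000375) and -1.47 (adjusted p = 0.0190). Abcc2, the canalicular exporter of conjugates, was at 0.17 and -0.05, and Abcc3, a basolateral exporter, at 0.60 (adjusted p = 0.0541) and 0.48. Under total counts 6 rose and 2 fell in miR-Ctrl BDL and 6 rose and 1 fell in anti-miR-873-5p BDL. Beside these, 71.6% and 76.6% of all genes were higher and 2.1% and 0.998% lower. Among those that rose were Abcc2, at 0.98 (adjusted p = 0.0221) and 0.74 (adjusted p = 0.0325), and Abcc3, at 1.37 (adjusted p = 0.00156) and 1.26 (adjusted p = 0.00255), while Slco1b2 was at -0.62 (adjusted p = 0.129) in the latter comparison.

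Of 10 transcription factors known to act on UGT genes, 2 rose and 5 fell in miR-Ctrl BDL, where 19.1% of all genes rose and 16.6% fell, and 1 fell in anti-miR-873-5p BDL, where 13.1% rose and 8.44% fell. Under TMM, Ppara (-1.86, adjusted p = 0.00133), Nr1i3, which encodes the constitutive androstane receptor (-1.18, adjusted p = 0.0119), Cebpa (-1.11, adjusted p = 0.000944) and Nr1h4, which encodes the bile acid receptor FXR (-0.97, adjusted p = 0.00196), were lower in miR-Ctrl BDL, as was Rxra (-0.59, adjusted p = 0.00433). Ahr, the dioxin receptor (0.68, adjusted p = 0.0486), and Nfe2l2, which encodes NRF2 (0.43, adjusted p = 0.0361), were higher. Nr1i2, which encodes the pregnane X receptor, was at 0.04 and Hnf4a at -0.24. In anti-miR-873-5p BDL, Cebpa fell by 0.76 (adjusted p = 0.0471), but with total counts alone it turned to 0.07 (adjusted p = 0.815). Under total counts 5 rose and only Ppara fell in miR-Ctrl BDL, and 6 rose in anti-miR-873-5p BDL. Beside these, 71.6% and 76.6% of all genes were higher and 2.1% and 0.998% lower. In miR-Ctrl BDL Rxra turned to 0.20 (adjusted p = 0.287) and Hnf4a to 0.56 (adjusted p = 0.00918), and Nr1i2 was at 0.81 (adjusted p = 0.00302). None of the 10 passed between the BDL groups, where no gene passed, so these fits do not show whether the factors differed there.

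Elements of known factors were searched by their letters on both strands, from 250 bases before to 50 after each start, in 32851 promoters. A direct repeat of AGGTCA with 1 base between and at most 2 mismatches, the kind of element that PPARα binds with its partner RXR, was present in 3.86% of promoters and in that of 1 member, Ugt2b36, and TTC and GAA with 3 bases between, a STAT5 element, in 8.3% and in that of Ugt1a6a. The match of Ugt2b36 lies within the 30-base stretch shown for it, and a match is a description of letters, not a site in use.

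Of 9 tested genes of sulfate conjugation, 7 sulfotransferases and the PAPS synthases Papss1 and Papss2, 1 was higher and 4 were lower in miR-Ctrl BDL, and 1 and 3 in anti-miR-873-5p BDL, beside 19.1% and 16.6% of all genes in the former and 13.1% and 8.44% in the latter. In miR-Ctrl BDL Sult1e1, the estrogen sulfotransferase, rose by 5.89, but on 1 to 8 reads per mouse with no BDL and 92 to 336 with miR-Ctrl BDL. The lower genes in that comparison were Sult2a8 at -8.46, Sult5a1 at -2.89, Sult1b1 at -2.02 and Papss2, which makes the sulfate donor, at -1.28. Scaled by total counts, 4 were higher and 3 lower in both comparisons, beside 71.6% and 76.6% of all genes higher and 2.1% and 0.998% lower. Among the higher ones in miR-Ctrl BDL were Sult1a1 at 1.69, Papss1 at 0.94 and Sult1d1 at 0.64. There Papss2 was no longer past the threshold (-0.50, adjusted p = 0.183). The lowest UGT value, that of Ugt2b1, thus lay within the range of these genes.

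Markers of cell types moved in the same comparisons. Of all genes, 19.1% rose and 16.6% fell in miR-Ctrl BDL, and 13.1% and 8.44% in anti-miR-873-5p BDL. In miR-Ctrl BDL, 4 of 6 tested hepatocyte markers fell (Ttr at a log2 fold change of -2.14, Serpina1a at -1.71, Cps1 at -0.94 and Apoa1 at -0.77), 6 of 6 cholangiocyte markers, 4 of 5 macrophage markers, 2 of 2 neutrophil markers and 4 of 6 stellate cell and fibroblast markers rose, and 1 of 2 erythroid markers (Alas2) fell. In anti-miR-873-5p BDL 2 of 6 hepatocyte markers fell and 6 of 6 cholangiocyte, 1 of 5 macrophage, 2 of 2 neutrophil and 4 of 6 stellate cell and fibroblast markers rose, while Kdr of the 4 endothelial and Alas2 of the 2 erythroid markers fell. Scaled by total counts, the hepatocyte markers that fell were 2 and 1, beside 2.1% and 0.998% of all genes lower. In both comparisons 5 of 5 macrophage and 5 of 6 stellate cell and fibroblast markers rose, beside 71.6% and 76.6% of all genes higher. No endothelial marker fell in either (Kdr at -0.42 with anti-miR-873-5p BDL, adjusted p = 0.342). The median log2 fold change of the hepatocyte markers was -0.87 and -0.71, beside -0.80 and -0.78 for the 10 UGT genes, and Ugt2b1, at -3.91 and -3.39, was below each of the 4 hepatocyte markers that fell. The part of cell composition in the UGT values was not tested.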

How the data were processed

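RNA was extracted from mouse liver with Trizol, and libraries were made by the authors with the TruSeq RNA v2 kit and read as 50-nucleotide single reads on a HiScanSQ. Per the labels, the processing notes name CASAVA 1.8.2, FastQC, Trim Galore, TopHat, DESeq2 and build mm10; the counting tool and annotation are not given in the sources used here. The deposited values are raw read counts per gene, in 3 tables, one for each pair of groups. Each comparison was fitted on its own table with edgeR 4.0.16 (R 4.3.3): filterByExpr, TMM and the quasi-likelihood test, with Benjamini-Hochberg adjustment over all genes tested. Levels used the 22246 genes whose counts were the same in the tables. Tested on simulated data, the fits recovered 90.5% (miR-Ctrl BDL and no BDL), 92.5% (anti-miR-873-5p BDL and no BDL) and 89.0% (both BDL groups) of 200 genes given a log2 change of 2. The simulation held no smaller changes and no shift of the kind seen in the scaling, so it does not give the recovery under those. Motifs and seed matches were counted on the reference promoters and transcripts. Replicate numbers did not pair the mice. All 10 members were named in all comparisons; of other lists, genes past the threshold, and the others named beside them were chosen after their values were seen. A gene of the list of transcription factors is not reported here. Members and lists were chosen with earlier results of these data known. Alternatives covered normalization, filters, DESeq2 1.42.0, the threshold, a joint fit and leaving out each mouse; the one without the 20 most counted genes was added after seeing the data.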

Additional observations from a re-analysis of the deposited data

Results flagged for a closer look

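In each group of 4 or 5 mice, the distance of the highest or lowest mouse from its nearest neighbour was set against the range of the group, for 10 members in 3 groups. Of these 30 groups, 2 held a mouse that stood apart beyond the critical value of Dixon's test, which chance gives in about 1 of 20 groups. Both were anti-miR-873-5p mouse 1. Its Ugt2b1 level was 159 CPM, against 9.50 to 28.7 in the other 3 mice of the group (gap over range 0.871), and its Ugt2b38 level was 274, against 89.3 to 98.9 (gap over range 0.948). The 274 of Ugt2b38 is within the range of mice with no BDL, and the 159 of Ugt2b1 is not.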

How the results depend on the processing

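Reads per mouse were at least 103 for Ugt2b1 and 22 to 371 of Ugt1a9, the least abundant member. Limits were the small groups, the scaling and single mice. In miR-Ctrl BDL against no BDL, genes past the threshold numbered 4666, or 3775 to 5710 with 1 mouse left out, and members 5, or 4 to 5; with anti-miR-873-5p BDL in its place 2823, or 1261 to 4317, and 1, or 1 to 6, the 6 without mouse 1; in the direct comparison 0, or 0 to 1, and 0 members each time. Ugt2b1 kept its call and direction in all of these fits of both comparisons with no BDL. DESeq2 size factors and both other filters on low counts kept every call of a member.

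With total counts alone, 9635 and 10194 genes and 2 and 2 members passed in the comparisons with no BDL. Log2 fold changes that turned were then 0.0151, 0.62, 0.39, 0.42 and 0.80 for Ugt1a1, Ugt1a6a, Ugt1a9, Ugt2b34 and Ugt2b35 in miR-Ctrl BDL, and 0.11, 0.44, 0.00746, 0.24, 0.61 and 0.0544 for Ugt1a1, Ugt1a6a, Ugt2b5, Ugt2b34, Ugt2b35 and Ugt2b36 in anti-miR-873-5p BDL. Without the 20 most counted genes in the totals, 1 member passed in miR-Ctrl BDL and 5357 genes passed in anti-miR-873-5p BDL, with Ugt1a6a, Ugt1a9, Ugt2b34 and Ugt2b35 at 0.25, 0.0224, 0.0452 and 0.42 in the former, Ugt1a6a and Ugt2b35 at 0.0116 and 0.17 in the latter, and Ugt2b5 at -0.0117 in the direct comparison. Against no BDL, 4 members of anti-miR-873-5p BDL passed under DESeq2, 4 at an adjusted p of 0.1 and 2 in the fit of all 13 mice; DESeq2 called 31 genes in the direct comparison, and on simulated data 15.2%, 21% and 18.7% of its calls fell on unchanged genes, against 2.69%, 5.61% and 5.32% for edgeR. In the direct comparison Ugt1a1 turned to 0.0862 in the fit of all 13 mice and 0.10 with all 4 mice of each group. Per kilobase of all exon bases, levels were lower for Ugt1a1, Ugt1a6a and Ugt1a9, with 58.9%, 50.3% and 59.9% of exon bases in another gene. For the other members that share was 0.0% by genome position, so their levels stayed the same, although Ugt2b5 and Ugt2b38 hold sequence that occurs in other genes. The cause of these changes was not tested.

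With 1 mouse left out, Ugt2b35 ranged from -0.15 to 0.13 in miR-Ctrl BDL against no BDL. In the direct comparison the ranges that crossed 0 were -0.22 to 0.21 for Ugt1a1, -0.60 to 0.0670 for Ugt1a6a, -0.19 to 0.32 for Ugt2a3, -0.93 to 0.97 for Ugt2b1, -0.60 to 0.28 for Ugt2b5, -0.39 to 0.28 for Ugt2b36 and -0.70 to 0.32 for Ugt2b38.

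The labels number the mice of each group, but the 12 same-numbered pairs had correlations of their deviations from -0.39 to 0.58 with a median of -0.03, against -0.51 to 0.70 in the 44 other pairs, so the numbers were taken as names. With the replicate block, 4063 of 13072, 2195 of 13130 and 0 of 13746 genes tested passed in the 3 comparisons. Relative to no BDL, 1895 of the genes that passed were lower in miR-Ctrl BDL and 746 in anti-miR-873-5p BDL. The 6 and 2 members that passed there were lower as well, and 0 members passed in the direct comparison. With this block Ugt2b35 was at 0.0285 in miR-Ctrl BDL, and Ugt2b5 and Ugt2b38 were at -0.0050 and -0.0378 in the direct comparison.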
